A study of Arabidopsis thaliana with 18 samples.

Results

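Jasmonates are lipid-derived hormones of wounding, defence and growth. In plastids, lipoxygenases, allene oxide synthase and allene oxide cyclase (AOC) turn linolenic acid into a precursor that OPR3 and peroxisomal enzymes shorten to jasmonic acid, and JAR1 then joins it to isoleucine. The conjugate is sensed by the F-box protein COI1 together with a JAZ repressor, whose breakdown frees MYC transcription factors, and JAZ genes are themselves targets of those factors.

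The genes described here are synthesis and response genes of this pathway: LOX2, LOX3, AOS, AOC1, AOC2, OPR3, JAZ1, JAZ10, VSP1 and VSP2. They were chosen by name as members of the pathway and by presence in the deposited expression table. Of these 10 loci, 4 had a row there, on 3 of its 6847 probe sets. AOC1 (AT3G25760) and AOC2 (AT3G25770), which encode allene oxide cyclases, share probe set 257641_s_at, written AOC1/2 below, so the signal of one cannot be told from that of the other. JAZ1 (AT1G19180) was measured by 256017_at and JAZ10 (AT5G13220), which encodes another JAZ repressor, by 250292_at. The 6 other loci are not analysed here. The rows of that table were themselves selected on measured values: fitted with limma on those 5 arrays, jmj17-1 at 2 h of light against its own dark arrays gives no row an unadjusted p above 0.0237. Membership thus depends on that contrast, and the light changes of jmj17-1 are given as descriptions without a test.

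Seedlings of Col-0 wild type and of the mutant jmj17-1, in the same Col-0 background, were grown on medium without sucrose and their whole-seedling RNA was hybridised to Affymetrix ATH1 arrays. They were taken after 4 days of dark, or after 2, 4 or 8 h of light that followed it. JMJ17 is a JmjC demethylase of histone H3 lysine 4, and the study asks how its loss alters transcripts as seedlings pass from dark to light. Both dark groups held 3 arrays and each of the 6 light groups held 2, 18 arrays in all, and this number limits the precision. The labels describe 1 mutant allele and no complemented line. They give no culture for a replicate, so p-values speak only of the spread among these arrays, which may be technical. JMJ17 has no row in the table, so its level in the mutant is not analysed here.

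Values are log2 RMA intensities. Differences are log2 differences ± SE from 1 limma fit of all 18 arrays, and the threshold was 0.05 for p-values adjusted over the 6847 probe sets by the method of Benjamini and Hochberg. "Rose" and "fell" are used of differences past it. Shares of all probe sets that passed were counted only at this threshold. Counts at an unadjusted p under 0.05, and statements that arrays did not overlap, have no such share beside them. They describe these arrays and are not read as results about the genes. Arrays carry the titles of the expression table, and the assignment of values to groups rests on those titles. A second deposited table attaches 16 of the 18 columns of values to the title of another group, and under its titles arrays of 1 group correlated at a median of 0.979 and a lowest value of 0.840, against 0.996 and 0.985 under the titles used. The files do not say which titles are right, so the group of each value below is not settled beyond this. Median intensity per array ran from 144.4 to 160.8 on the linear scale. Mutant dark replicate 2 stood apart, with correlations of 0.985 to both other mutant dark arrays against 0.995 between those, so the calls of the dark comparison are also given without it. Of the green tissue markers 3 of 5 had a row, at summed intensities from 7440 to 24688 over all arrays, with that array the highest of the dark arrays at 11276 and the wild-type dark arrays at 7748 to 8681. Of the root markers 1 of 6 had a row, CASP1 of the Casparian strip. It stood higher in the mutant, without overlap and not past the threshold, at 2 h (10.54 and 10.53 against 10.37 and 10.49, adjusted p = 0.522) and at 8 h (11.13 and 11.07 against 10.86 and 10.91, adjusted p = 0.242), and its part in the results at these times was not tested. The RNA is from whole seedlings, so fewer cells of a type and less RNA per cell cannot be told apart in any result below.

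AOC1/2 rose in wild type at every light time and was highest at 8 h. The 3 dark arrays of wild type stood at 4.91, 4.67 and 4.69, the 2 h arrays at 6.27 and 6.59, the 4 h arrays at 6.29 and 6.10, and the 8 h arrays at 8.37 and 8.04. All light arrays lay above all dark arrays, and those at 8 h above those at 2 and 4 h. The rise was 1.67 ± 0.16 at 2 h (adjusted p = 1.3e-07, limma), 1.44 ± 0.16 at 4 h (adjusted p = 1.04e-06) and 3.45 ± 0.16 at 8 h (adjusted p = 3.72e-11), the last a 10.9-fold change. In the dark only 11.1 percent of probe sets were dimmer than AOC1/2 in wild type, so the sizes of these rises are not established.

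JAZ1 rose briefly in wild type. Its dark arrays stood at 8.39, 8.08 and 8.31, its 2 h arrays at 10.07 and 9.95, its 4 h arrays at 8.34 and 7.97, and its 8 h arrays at 8.32 and 8.46. Only the 2 h arrays were clear of the dark arrays, by 1.75 ± 0.16, which is 3.37-fold (adjusted p = 1.2e-07, limma). At 4 h the difference from dark was -0.10 ± 0.16 (95% interval -0.45 to 0.24, adjusted p = 0.573) and at 8 h 0.13 ± 0.16 (95% interval -0.22 to 0.47, adjusted p = 0.471).

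JAZ10 in wild type stood at 6.84, 6.37 and 6.69 in the dark, 6.59 and 6.54 at 2 h, 6.82 and 6.45 at 4 h, and 5.86 and 5.99 at 8 h. The 2 h and 4 h arrays lay within the range of the dark arrays, and the 8 h arrays lay below all others. The fall at 8 h was -0.71 ± 0.13 (adjusted p = 0.000144, limma), while the difference was -0.07 ± 0.13 at 2 h (adjusted p = 0.633) and 0.00 ± 0.13 at 4 h (adjusted p = 0.978). The repressor genes JAZ1 and JAZ10 thus followed different courses in wild type. Over the 8 group means of both genotypes they correlated at 0.29, which does not measure the wild-type courses alone. This correlation is a description of 8 points that share their arrays and normalization, and AOC1/2 correlated at 0.21 with JAZ1 and at -0.17 with JAZ10.

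The counts of light changes in wild type were 2, 1 and 2 of the 3 members at 2, 4 and 8 h. They stand against a background of 89.5, 71.5 and 80.3 percent of all 6847 probe sets past the same threshold, so that such a call says little about these genes in particular. Membership among the 6847 itself depends on a light contrast of jmj17-1. These shares are therefore not those of all 22810 probe sets of the array. The median difference of all probe sets was -0.21, -0.10 and -0.20 at these times.

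In jmj17-1 the dark arrays of AOC1/2 stood at 5.15, 5.18 and 4.64, those at 2 h at 6.35 and 6.59, at 4 h at 6.05 and 6.03, and at 8 h at 7.45 and 7.40. As in wild type all light arrays lay above the dark arrays, with untested differences from dark of 1.48, 1.05 and 2.44 at 2, 4 and 8 h. JAZ1 stood at 7.50, 7.24 and 7.78 in the dark, 9.43 and 9.71 at 2 h, 8.01 and 8.00 at 4 h, and 7.78 and 8.18 at 8 h, which gives 2.07, 0.50 and 0.48 against dark. JAZ10 stood at 5.38, 5.44 and 5.45 in the dark, 5.80 and 5.76 at 2 h, 6.33 and 6.22 at 4 h, and 5.73 and 6.01 at 8 h, or 0.35, 0.85 and 0.45 above dark. The 3 dark arrays of JAZ10 lay within 0.07 of each other and below every light array of the mutant, whereas in wild type the dark arrays spanned the range of the 2 h arrays and lay above both 8 h arrays.

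**Figure D1:**
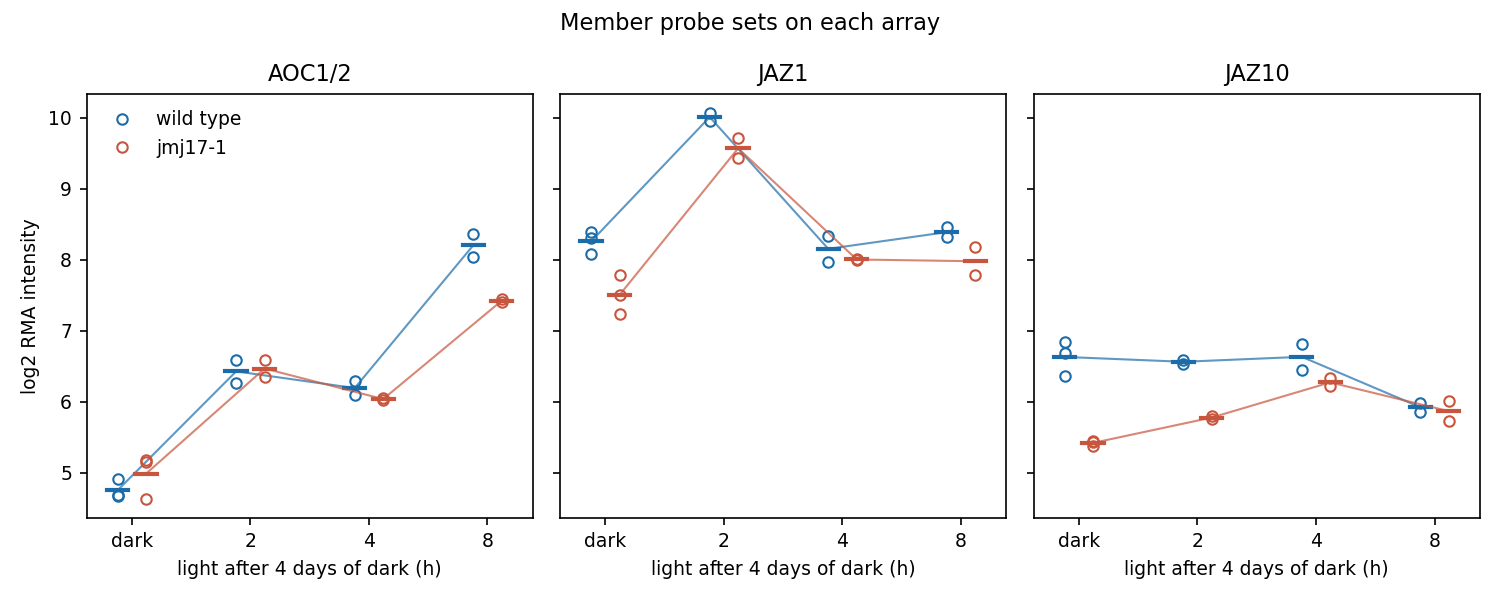
Log2 RMA intensity of AOC1/2, JAZ1 and JAZ10 on each of the 18 arrays, by hours of light after 4 days of dark (evenly spaced) and by genotype; circles are arrays, short bars are group means and thin lines join the means. Mutant arrays lie wholly below wild type for JAZ10 in the dark, at 2 h and at 4 h, for JAZ1 in the dark, at 2 h and at 8 h, and for AOC1/2 at 4 h and 8 h. The share of all probe sets for which this holds was not counted.

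Set against wild type in the dark, both JAZ members were lower in jmj17-1. The mutant level of JAZ10 was 5.43 ± 0.04 (mean ± SD, n = 3) against 6.63 ± 0.24 in wild type (n = 3), and all 3 mutant arrays lay below all 3 wild-type arrays. It fell by 1.21 ± 0.12 (95% interval -1.46 to -0.96, adjusted p = 5.97e-05, limma), a level 2.31-fold lower. The presence of JAZ10 among the probe sets depends on these same mutant dark arrays, so their small spread is not independent of that choice. In the mutant in the dark 18.5 percent of probe sets were dimmer than JAZ10. JAZ1 was at 7.50 ± 0.27 against 8.26 ± 0.16, again with no overlap, and fell by 0.76 ± 0.14 (adjusted p = 0.0212, limma). AOC1/2 was at 4.99 ± 0.30 against 4.76 ± 0.13, with overlapping arrays and a difference of 0.23 ± 0.14 (adjusted p = 0.343).

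Of all probe sets, 1.80 percent passed in this comparison and 1.18 percent passed as lower. Mutant dark arrays also took part in the choice of the probe sets kept, as did those at 2 h. The genotype differences at these 2 times are therefore not independent of it. The fit takes the spread of a probe set from all arrays, these mutant arrays included. The p-values at the later times and in wild type are thus not wholly independent of that choice either. The size of this dependence was not tested. Without mutant dark replicate 2 the JAZ10 difference was -1.21 (adjusted p = 0.000139) and that of AOC1/2 0.14 (adjusted p = 0.747), while JAZ1 stood at -0.62 and no longer passed (adjusted p = 0.0614). With only the dark arrays in the fit JAZ1 did not pass either (adjusted p = 0.13). The JAZ1 call was also lost without wild-type dark replicate 1 (-0.69, adjusted p = 0.0699) and replicate 3 (-0.73, adjusted p = 0.0978).

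After 2 h of light JAZ10 was still lower in the mutant. Its level was 5.78 ± 0.03 (mean ± SD, n = 2) against 6.57 ± 0.03 in wild type (n = 2), a fall of 0.79 ± 0.14 (adjusted p = 0.00532, limma). In this comparison 5.27 percent of all probe sets passed and 4.29 percent passed as lower. The call was lost without mutant 2 h replicate 2 (-0.76, adjusted p = 0.0624). JAZ1, then at the highest level of its course in both genotypes, was at 9.57 ± 0.20 against 10.01 ± 0.08. Its arrays did not overlap, but the difference of -0.44 ± 0.18 did not pass (adjusted p = 0.166). AOC1/2 differed by 0.04 ± 0.17 (95% interval -0.32 to 0.41, adjusted p = 0.917).

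At 4 h 0 of the 3 members passed (limma), and 1, JAZ10, had an unadjusted p under 0.05. Of all probe sets 2.72 percent passed, 1.85 percent as lower and 0.862 percent as higher. JAZ10 differed by -0.36 ± 0.14 (adjusted p = 0.239), or by -0.17 without wild-type 4 h replicate 1 and -0.55 without replicate 2. The other members differed less, JAZ1 by -0.15 ± 0.18 (adjusted p = 0.778) and AOC1/2 by -0.15 ± 0.17 (adjusted p = 0.754).

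At 8 h the member that passed was AOC1/2, with 7.43 ± 0.04 (mean ± SD, n = 2) in the mutant against 8.21 ± 0.23 in wild type (n = 2). It fell by 0.78 ± 0.17 (95% interval -1.14 to -0.42, adjusted p = 0.0386, limma), a level 1.72-fold lower, and both mutant arrays lay below both wild-type arrays. In this comparison 1.27 percent of all probe sets passed and 0.482 percent passed as lower. With every probe set of the second table in the fit AOC1/2 did not pass (adjusted p = 0.0627). The call held without 8 of the 18 arrays left out one at a time and was lost without each of the other 10, at adjusted p-values up to 0.27. Those were wild-type dark replicates 2 and 3, both 2 h and both 4 h arrays of the mutant, and all 4 arrays at 8 h, and the difference ran from -0.95 without wild-type 8 h replicate 2 to -0.62 without replicate 1. JAZ10 was by then at 5.87 ± 0.20 against 5.92 ± 0.09, a difference of -0.05 ± 0.14 (95% interval -0.36 to 0.25, adjusted p = 0.92), and JAZ1 differed by -0.41 ± 0.18 (adjusted p = 0.3), or by -0.21 without mutant 8 h replicate 1 and -0.61 without replicate 2.

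**Figure D2:**
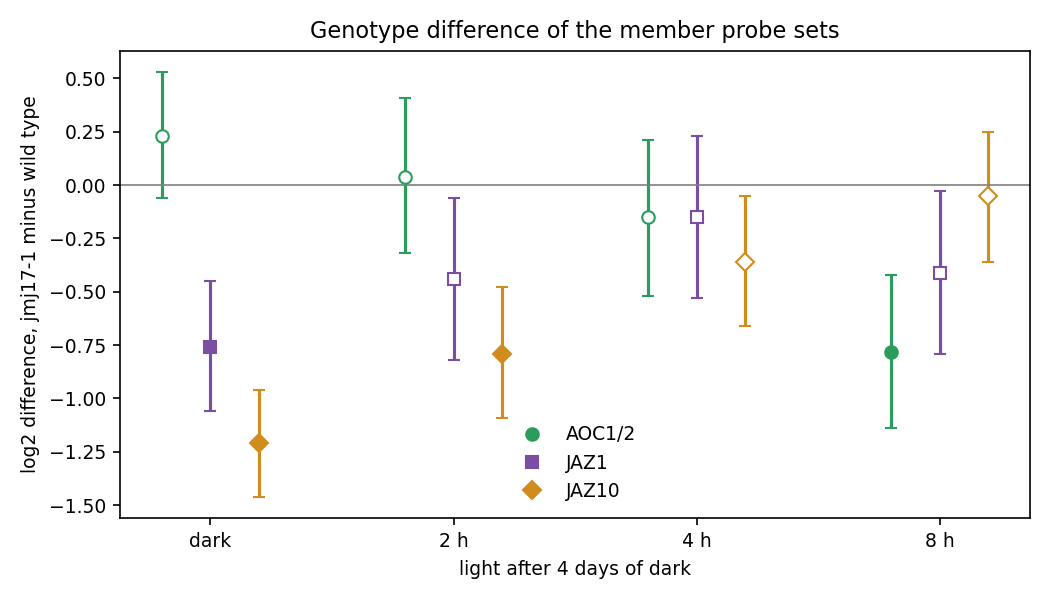
Log2 difference, jmj17-1 minus wild type, of AOC1/2, JAZ1 and JAZ10 in the dark and at 2, 4 and 8 h of light; bars are 95% intervals of the limma fit and filled symbols have an adjusted p under 0.05. The JAZ10 differences are -1.21, -0.79, -0.36 and -0.05 in this order, whereas AOC1/2 stands at 0.23, 0.04, -0.15 and -0.78.

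The change of the genotype difference between 4 h and 8 h was tested by itself. It was -0.63 ± 0.24 for AOC1/2 (adjusted p = 0.194, limma), 0.30 ± 0.20 for JAZ10 (adjusted p = 0.493) and -0.26 ± 0.25 for JAZ1 (adjusted p = 0.654). None of the 3 passed, 1 had an unadjusted p under 0.05, and 2.18 percent of all probe sets passed. The change from the dark onward was not tested, since it contains the contrast on which probe sets were kept.

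Ordered by level, AOC1/2 was highest in wild type at 8 h (8.21), then in the mutant at 8 h (7.43). The groups at 2 and 4 h followed between 6.47 and 6.04, where neighbours lay within about the spread of their arrays. The dark groups of the mutant (4.99) and wild type (4.76) were lowest, where 13.1 and 11.1 percent of probe sets were dimmer. For JAZ1 both 2 h groups led (10.01 and 9.57), the wild type at 8 h, dark and 4 h lay between 8.39 and 8.16 within their spread, the mutant at 4 h and 8 h followed at 8.01 and 7.98, and the mutant in the dark was lowest at 7.50. For JAZ10 the wild type at 4 h (6.64), in the dark (6.63) and at 2 h (6.57) did not differ beyond their spread, and the mutant at 4 h followed at 6.28. Below these, the wild type at 8 h (5.92) and the mutant at 8 h (5.87) and 2 h (5.78) lay close together, and the mutant in the dark was lowest at 5.43.

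The rest of the pathway was followed in 4 lists of 71 further loci. Probe sets that name a single locus measured 26 of them. Measured were 4 of 19 synthesis genes, 3 of 12 turnover genes, 13 of 23 signalling genes and 6 of 17 response genes. JAR1 had no such probe set and is not analysed here.

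In wild type, synthesis genes did not move as 1 block in light. AOC3, another allene oxide cyclase gene, rose at 2 h by 0.84 ± 0.14 (adjusted p = 5.61e-05, limma) and fell below dark later, with -0.44 ± 0.14 at 4 h and a mean level of 4.10 at 8 h against 5.10 in the dark (adjusted p = 9.41e-06). AOC4, the remaining gene of that family, fell at all times, with -1.02 ± 0.10, -1.22 ± 0.10 and -1.51 ± 0.10 at 2, 4 and 8 h. AOC1/2, which rose 3.45 at 8 h, thus stood apart in direction from AOC3 and AOC4 at that time. OPCL1, for a peroxisomal CoA ligase of jasmonate synthesis, and ACX1, for an acyl-CoA oxidase of the chain-shortening step, rose at 2 h by 0.64 and 0.59 and did not pass later. The probe set shared by OPR1 and OPR2, relatives of OPR3, names 2 loci and is not in the counts. It rose by 3.80 ± 0.17 at 2 h, 13.9-fold, by 1.73 ± 0.17 at 4 h and by 0.93 ± 0.17 at 8 h. The probe set shared by FAD7 and FAD8, for plastid desaturases that make linolenic acid, likewise outside the counts, rose by 1.64 ± 0.22 at 2 h and 2.83 ± 0.22 at 8 h, and its genotype differences did not pass.

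Turnover genes were split. ST2A, for a sulfotransferase that inactivates hydroxylated jasmonate, fell, with -2.12 ± 0.13 at 2 h, -2.50 ± 0.13 at 4 h and -2.14 ± 0.13 at 8 h (adjusted p = 9.22e-10 at 8 h, limma). CYP94B1, for a cytochrome P450 that oxidises the isoleucine conjugate, rose by 0.42, 0.87 and 1.32 at these times. ILL6, for an amidohydrolase that cleaves the conjugate, fell, with -0.66 at 2 h and -0.50 at 8 h.

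Among signalling genes, COI1, the receptor gene, fell, with -0.46 ± 0.10 at 2 h, -0.53 ± 0.10 at 4 h and -0.92 ± 0.10 at 8 h (adjusted p = 5.18e-07, limma). MYC2, for the best-known transcription factor of the pathway, did not pass at 2 h (0.17 ± 0.12, adjusted p = 0.206) and fell later, with -0.39 at 4 h and -0.68 at 8 h. Repressor genes differed among themselves. JAZ6 rose by 1.10 at 2 h and fell by 0.69 at 8 h, JAZ9 rose by 0.95 at both times, and JAZ3 fell, with -0.65 at 2 h and -0.69 at 8 h. JAV1, for a repressor of jasmonate defence, rose by 1.08 ± 0.15 at 2 h. GTR1, for a transporter of glucosinolates that can also carry jasmonates, rose by 1.84, 1.12 and 1.27 at 2, 4 and 8 h. JAT1, for another jasmonate transporter, rose by 0.71, 0.81 and 0.72. JAM2, for a bHLH repressor of the response, fell, with -0.79, -1.03 and -1.46.

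Response genes mostly rose. RAP2.6, for an ethylene response factor, rose by 3.47 ± 0.13 at 2 h, 1.53 ± 0.13 at 4 h and 2.68 ± 0.13 at 8 h (adjusted p = 1.16e-10 at 8 h, limma). CLH1, for a chlorophyllase, rose by 1.08, 1.43 and 1.73. Of the NAC transcription factor genes, NAC019 rose by 1.82 ± 0.24 and NAC072 by 1.44 ± 0.14 at 8 h, whereas NAC055 fell by 0.49 ± 0.11. In all, 17 of the 26 genes rose and 8 fell at 2 h, 10 rose and 10 fell at 4 h, and 8 rose and 12 fell at 8 h. Over all probe sets 40.5, 31.3 and 31.7 percent rose and 49.0, 40.1 and 48.6 percent fell. These shares too are of probe sets whose presence depends on a light contrast of jmj17-1.

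**Figure D3:**
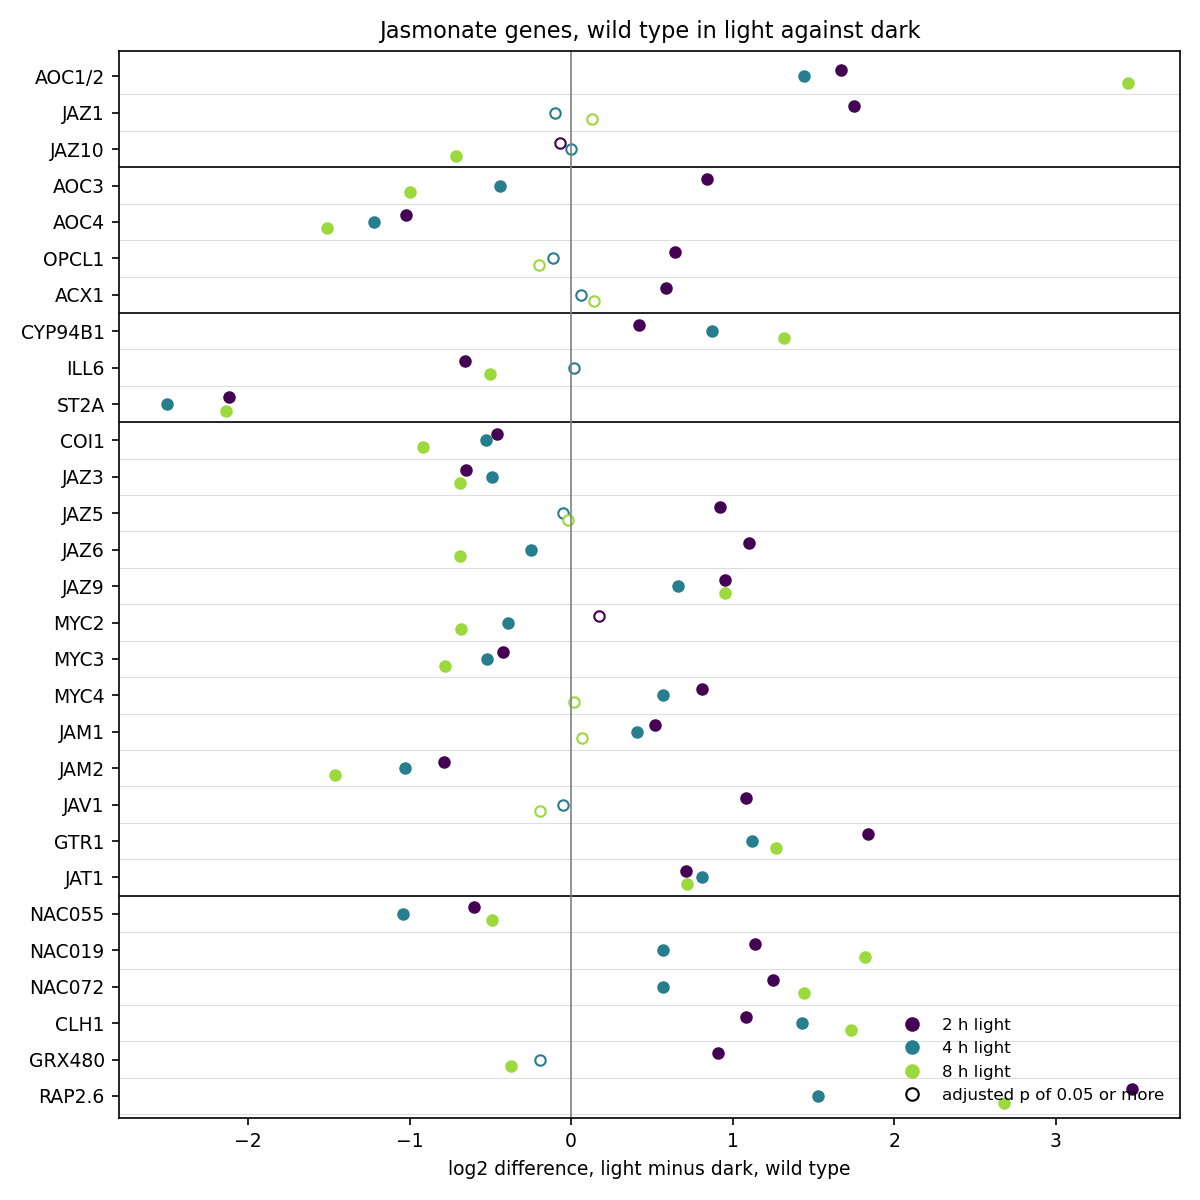
Log2 difference, light minus dark, in wild type for the 3 member probe sets (top) and 26 further jasmonate genes in the order synthesis, turnover, signalling and response, divided by black lines; colours are hours of light and open symbols have an adjusted p of 0.05 or more. AOC1/2 at 8 h (3.45) and RAP2.6 at 2 h (3.47) lie farthest right, and ST2A at 4 h (-2.50) farthest left.

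Between genotypes in the dark, 2 of the 26 genes fell and 0 rose in jmj17-1, and 12 had an unadjusted p under 0.05, 11 of them lower. Over all probe sets 1.18 percent passed as lower and 0.613 percent as higher. These shares belong to the adjusted calls, not to the unadjusted counts. The share of all probe sets with an unadjusted p under 0.05 was not counted. The counts of 12 and 11 are therefore no result about these genes in particular. The genes that fell were AOC3 and GRX480, the latter for a glutaredoxin of salicylate and jasmonate crosstalk. GRX480 stood at 5.22, 5.05 and 4.99 in the mutant and at 5.73, 5.52 and 6.08 in wild type, with no overlap, and fell by 0.69 ± 0.12 (adjusted p = 0.00948, limma). AOC3 stood at 4.41, 4.41 and 4.52 against 5.14, 4.93 and 5.23, again without overlap, and fell by 0.65 ± 0.13 (adjusted p = 0.0215). Both genes were dim in the mutant in the dark. Only 8.22 percent of probe sets were dimmer than AOC3 and 14.2 percent dimmer than GRX480, so the sizes are not established. The AOC3 call was lost without mutant dark replicate 2 (-0.63, adjusted p = 0.0501) and without wild-type dark replicates 1 (-0.63, adjusted p = 0.0675) and 3 (-0.58, adjusted p = 0.123). With only the dark arrays in the fit neither gene passed (adjusted p = 0.141 for GRX480 and 0.0611 for AOC3). GRX480 passed without mutant dark replicate 2 (-0.67, adjusted p = 0.0242). ZAT10, a touch and handling gene, was also lower in the mutant in the dark, at 5.70, 4.72 and 5.34 against 5.89, 5.91 and 6.19. The groups did not overlap, the difference of -0.74 ± 0.21 did not pass (adjusted p = 0.0763), and its part in the dark differences of the jasmonate genes was not tested. The 4 other genes of that list overlapped between genotypes in the dark.

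The 26 genes had a median of -0.20 in the dark against 0.02 over all probe sets, and 20 of them were negative, against 44.2 percent of all probe sets. All 4 further JAZ genes measured were among the 20, at values from -0.33 for JAZ9 (adjusted p = 0.0601) to -0.19 for JAZ5 (adjusted p = 0.337), none past the threshold. COI1 was at -0.21 ± 0.09 (adjusted p = 0.191) and MYC2 at -0.27 ± 0.11 (adjusted p = 0.176). The count of calls was 5 without mutant dark replicate 1 or 3 and 1 without mutant dark replicate 2 or wild-type dark replicate 1 or 3. Mutant arrays lay wholly below wild type for 10, 13, 10 and 11 of the 26 genes in the dark and at 2, 4 and 8 h. The share of all probe sets for which this holds was not counted. The dark count rests on 3 arrays a group and the light counts on 2, where separation comes more easily, so they cannot be compared. At 4 h 0 of the 26 passed, so a lack of overlap alone says little about a gene.

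At 2 h, 5 of the 26 genes fell and 0 rose, and 9 had an unadjusted p under 0.05, 8 of them lower. Over all probe sets 4.29 percent passed as lower and 0.979 percent as higher, which again belongs to the adjusted calls only. For the unadjusted counts of 9 and 8 no share over all probe sets was counted, so they too are no result about these genes. GRX480 was at 5.86 and 6.01 in the mutant against 6.73 and 6.64 in wild type and fell by 0.74 ± 0.14 (adjusted p = 0.00832, limma). AOC3 was at 5.33 and 5.29 against 6.20 and 5.67 and fell by 0.63 ± 0.15 (adjusted p = 0.0286). In both the groups did not overlap. JAV1 fell by 0.66 ± 0.16 (mean 7.50 against 8.17, adjusted p = 0.029). JAZ5 fell by 0.54 ± 0.14 (adjusted p = 0.0353), at levels so low (3.58 and 4.12, with 2.42 and 4.79 percent of probe sets dimmer) that the size is not established, and OPCL1 fell by 0.44 ± 0.12 (adjusted p = 0.0448). The shared probe set of OPR1 and OPR2 read 11.00 and 11.00 in the mutant and 11.70 and 11.68 in wild type, and fell by 0.69 ± 0.19 (adjusted p = 0.0452). COI1 was at -0.15 ± 0.11 (adjusted p = 0.479) and MYC2 at -0.05 ± 0.13 (adjusted p = 0.87).

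The call of OPCL1 was lost under each of the 6 other ways of processing in which it was tested, the replicate block among them (-0.44, adjusted p = 0.0656, limma). Those of JAZ5 and JAV1 were lost after quantile normalization (adjusted p = 0.0648 and 0.0545) and after median centring (adjusted p = 0.0637 and 0.0504). They were also lost with every probe set of the second table (adjusted p = 0.0667 and 0.0549). With 1 array left out the JAV1 difference ran from -0.79 to -0.54. The AOC3 call was lost with only the arrays compared (adjusted p = 0.0897) and with every probe set of the second table (adjusted p = 0.0548). That of OPR1 and OPR2 was kept in 3 of 7 other ways of processing and without 10 of the 18 arrays, with adjusted p-values up to 0.0833 and 0.202. Calls at 2 h also depended on single arrays. Without wild-type 2 h replicate 1 or mutant 2 h replicate 1 the count was 0, without mutant 2 h replicate 2 it was 1, without wild-type 2 h replicate 2 or either mutant 4 h array it was 3, and without mutant dark replicate 2 it was 8. The AOC3 difference was -0.36 without wild-type 2 h replicate 1. Genes of touch and handling moved in the same comparison: all 5 were measured and negative, with WRKY40 at -0.99 (adjusted p = 0.000396) and TCH3 at -0.58 (adjusted p = 0.0311) past the threshold. Their summed intensity was 6246 to 6550 in the mutant against 8464 to 8984 in wild type at 2 h, 2878 to 3118 against 3871 to 3974 at 4 h and 2643 to 2858 against 1869 to 1913 at 8 h, and in the dark the ranges overlapped (2212 to 2729 against 2408 to 2602). Their part in the jasmonate differences was not tested.

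At 4 h 0 of the 26 genes passed (limma), and 4 had an unadjusted p under 0.05, with 2 of them lower. The share of all probe sets with such a p was not counted. COI1 was at -0.28 ± 0.11 (adjusted p = 0.215), GRX480 at -0.20 ± 0.14 (adjusted p = 0.601) and AOC3 at -0.34 ± 0.15 (adjusted p = 0.312).

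At 8 h 1 gene fell, against 0.482 percent of all probe sets, and 0 rose, with 4 at an unadjusted p under 0.05, all lower. The share of all probe sets with such an unadjusted p was not counted. The gene that fell was NAC019, at 4.70 and 5.43 in the mutant against 6.35 and 6.31 in wild type. In the mutant only 14.8 percent of probe sets were dimmer. The NAC019 fall was 1.26 ± 0.26 (adjusted p = 0.0253, limma). It was lost without either wild-type array at 8 h and without mutant 8 h replicate 1 (-0.90, adjusted p = 0.382). All 6 response genes were negative at 8 h, with a median of -0.46, among them RAP2.6 at -0.61 (adjusted p = 0.0597), CLH1 at -0.48 (adjusted p = 0.28) and NAC072 at -0.44 (adjusted p = 0.181). Over all probe sets 50.8 percent were negative and the median was 0.00. In the test of 8 h against 4 h, 0 of the 26 genes passed (limma), 5 had an unadjusted p under 0.05, and COI1 stood at 0.49 ± 0.15 (adjusted p = 0.112).

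**Figure D4:**
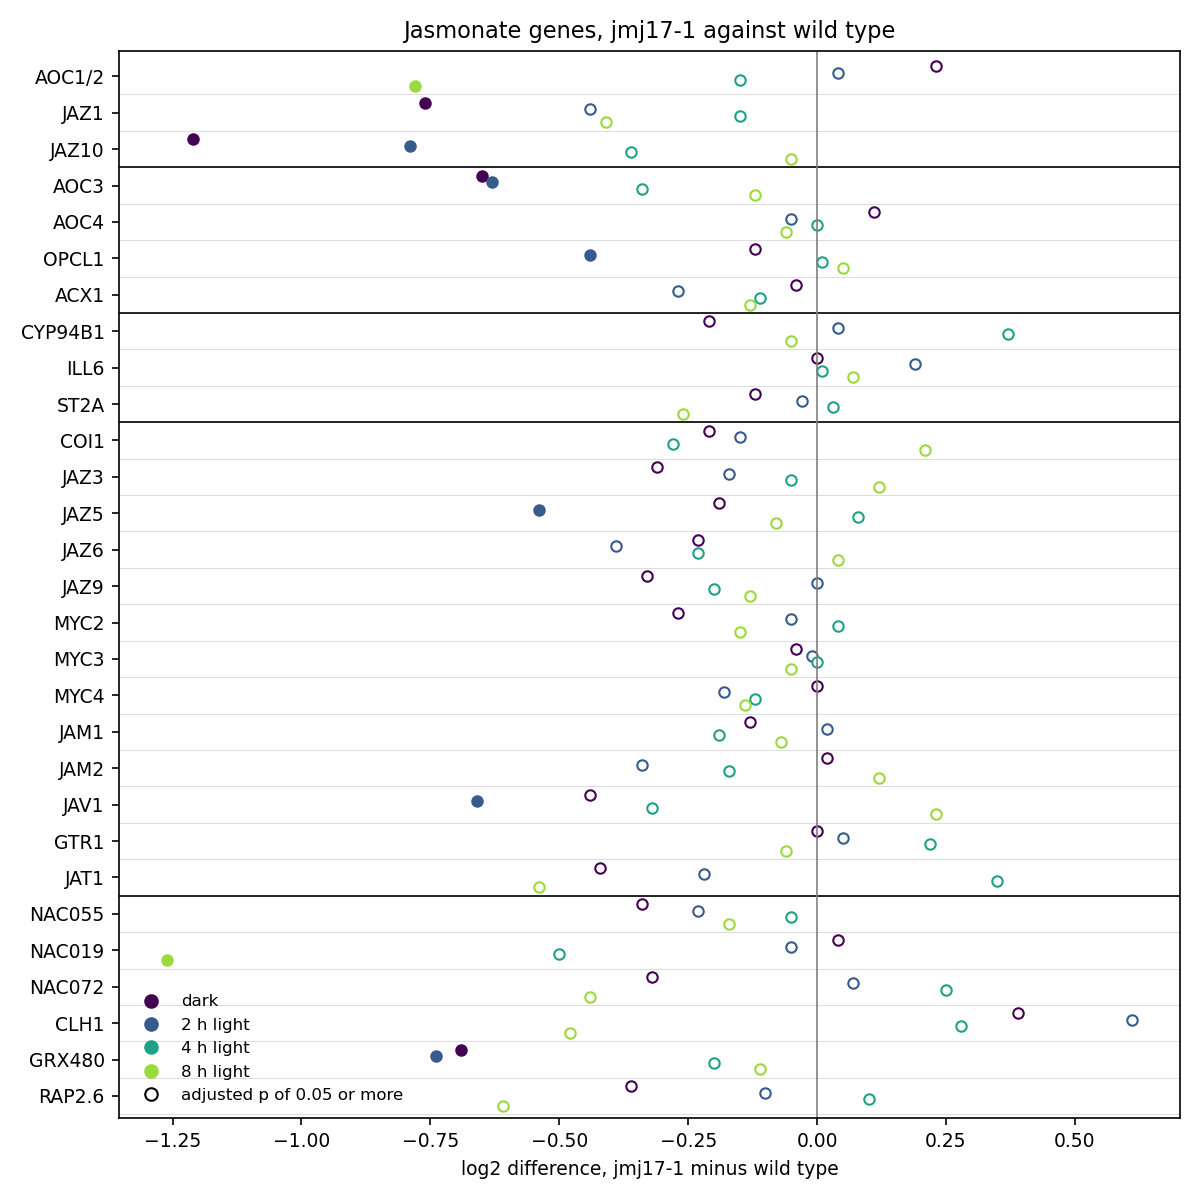
Log2 difference, jmj17-1 minus wild type, for the same genes in the same order; colours are time points and filled symbols have an adjusted p under 0.05. The filled symbols all lie left of 0, in the dark and at 2 h for JAZ10, AOC3 and GRX480, in the dark for JAZ1, at 2 h for OPCL1, JAZ5 and JAV1, and at 8 h for AOC1/2 and NAC019.

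Likeness to the members was measured as Pearson's correlation over the 8 group means with the average of the 3 member probe sets, each centred on its own mean. The 5 most alike of 6512 other probe sets of 1 locus were AT5G66120 at 0.984, AT1G73480 at 0.971, NTMC2T5.1 (AT1G50260) at 0.969, AT3G57990 at 0.968 and AT1G56345 at 0.967. All were highest in wild type at 2 h and lowest in the mutant in the dark, as was the average of the members. They were picked by correlation with that average, so this is no separate result. The average is also not the course of each member: AOC1/2 was highest in wild type at 8 h (8.21) and JAZ10 in wild type at 4 h (6.64).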

How the data were processed

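The submitters' processing notes name GCOS 1.4. RMA summaries with quantile normalization were made by the authors, per the file headers, which also name a moderated t-test as the filter on rows. Which comparison it used is not stated there. The deposited intensity columns were taken as log2 here. They are headed as raw data, but their row-centred log2 values equal the deposited normalized log2 block to within 2.0e-06, so they are RMA values. The authors' log2 fold change, used only as a check, equals the difference of the dark means. A second deposited table holds centred log2 values of 22810 probe sets. Its columns equal the array of their own title in 2 cases and of another title in 16, so it was used for 1 alternative alone, each column being assigned to the array with equal values.

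The model held 1 mean for each group of the 18 arrays and gave 8 comparisons. It was fitted by lmFit, contrasts.fit and eBayes of limma 3.58.1 under R 4.3.3. Residual degrees of freedom were 10 and prior degrees of freedom 4.91. No filter or batch term was used, and 9 control probe sets were kept. The fit was tested on simulated data. Python 3.11.15 with NumPy 2.4.6, matplotlib 3.10.9 and pandas 2.3.3 served for summaries and plots.

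The members and lists were chosen with earlier results of these data known. A gene on a list was represented by its brightest probe set of 1 locus. Named were every member, COI1 and MYC2, in each comparison up to 4 genes a list with the largest difference past the threshold, and the 5 most alike. JAZ3, the further genes given by value without a call, and the probe sets shared by 2 loci were named after their values were seen. Gene names come from the deposited table and RefSeq (TAIR10.1), and no sequences were used. Alternatives were quantile normalization, median centring, leaving out dim probe sets, array weights, a replicate block, only the arrays compared, all probe sets of the second table, and each array left out.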

Additional observations from a re-analysis of the deposited data

Results flagged for a closer look

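Of the touch and handling genes, 3 passed the test of the genotype difference at 8 h against that at 4 h (limma). The change was 1.04 for TCH3 (adjusted p = 0.0182), 0.92 for TCH4 (adjusted p = 0.00612) and 1.04 for WRKY40 (adjusted p = 0.00702), so these genes stood lower in jmj17-1 at 4 h relative to wild type than at 8 h.

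JAZ10 moved in opposite directions in the genotypes at 8 h of light. All wild-type arrays at 8 h lay below the wild-type dark arrays (-0.71 ± 0.13), and both mutant arrays at 8 h lay above the mutant dark arrays (0.45). The 8 h levels lay close together (5.87 in the mutant and 5.92 in wild type). The opposite directions thus restate the unlike dark levels (5.43 in the mutant and 6.63 in wild type). The difference between the genotypes in the change from dark was not tested.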

How the results depend on the processing

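The counts of members past the threshold (2, 1 and 2 for wild type at 2, 4 and 8 h of light, then 2, 1, 0 and 1 between genotypes in the dark and at 2, 4 and 8 h, and 0 for 8 h against 4 h) were the same after quantile normalization, median centring and array weights. Without the dimmest 40 percent of probe sets, which removes AOC1/2 and JAZ10, they were 1, 0 and 0 in wild type and 1, 0, 0 and 0 between genotypes. With only the arrays compared, 1 passed in the dark, since JAZ1 no longer did (adjusted p = 0.13). With every probe set of the second table, 0 passed at 8 h, since AOC1/2 stood at an adjusted p of 0.0627. Leaving out 1 array at a time gave 1 to 2 in the dark, 0 to 1 at 2 h, 0 at 4 h, 0 to 1 at 8 h and the full counts in wild type. JAZ10 in the dark kept its call in all 18 of these, at -1.34 to -1.10. With the replicate number as a block the counts of members were also 2, 1 and 2 and 2, 1, 0 and 1. Same-numbered arrays of the genotypes deviated together (r over 0.1) in 3 of 9 pairs, from -0.03 to 0.21. Where a group held 2 arrays, their deviations were exact opposites, so replicates 1 and 2 gave the same r. It was 0.0919 at 2 h, 0.0358 at 4 h and 0.215 at 8 h. Whether the numbers pair the arrays was thus not settled. Of 802 values of single genes under an alternative, 729 kept their side of the threshold, 73 lost the call and 0 turned direction while called. The 802 include light changes in wild type and differences that never passed. All 73 losses fell on calls between genotypes, so those calls were less stable than the share of 729 implies.

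Of the 26 further genes, 2 passed in the dark, or 4 after median centring and 0 both without the dimmest 40 percent and with only the arrays compared. At 2 h 5 passed, or 2 after quantile normalization or median centring and 1 with every probe set of the second table or without the dimmest 40 percent. At 8 h 1 passed, or 2 with array weights or with only the arrays compared and 0 without the dimmest 40 percent. In wild type without the dimmest 40 percent, 15 passed at 2 h and 13 at 4 h in place of 25 and 20. In the test of 8 h against 4 h, 2 passed with array weights and 1 with only the arrays compared. The cause of these shifts was not tested, apart from the genes removed as dim.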
